A study of Rattus norvegicus with 10 samples.

Results

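Ramp3 (ENSRNOG00000053766) and Bdkrb2 (ENSRNOG00000047300), 2 of the 32622 genes in a table of read counts, were followed through cultured progenitor cells from the rat soleus muscle. They were chosen with earlier results on these libraries in view, as a pair of genes for vasoactive peptide receptors. Of the pair, Ramp3 encodes an accessory protein of such a receptor. Their levels and fold changes are therefore given as a description and without a test. The cells came from 3-month-old male Wistar rats that were kept in cages (Control) or suspended by the tail, so that the hindlimbs bore no load, for 1 (HS1), 3 (HS3), 7 (HS7) or 14 days (HS14). RNA was taken about a day after the cells had been purified and pre-plated, so the suspension took place in the animal and not in culture. Each group had 2 libraries of poly(A) RNA, and the sources used here do not say whether these came from different animals, so the spread between them may be technical.

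RAMP3 is a small accessory protein that spans the membrane once. Together with the calcitonin receptor-like receptor it forms a receptor for adrenomedullin, a peptide that widens blood vessels. BDKRB2 is the bradykinin B2 receptor, coupled mainly to Gq, through which kinins raise calcium in the cytosol and relax or contract vascular tissue. Kinins are cut from kininogens by kallikreins and are broken down by membrane peptidases, neprilysin (Mme) among them. In skeletal muscle both peptide systems are best known from the vessels and the connective tissue.

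Ramp3 had the widest range of levels of all genes kept by the main setting given below, though not by every setting. The 250 bases before its RefSeq start are printed here. They lie on the forward strand at chr14:85741064-85741313 of build GRCr8, which is a later build than either of those named for the counts, and capitals mark the GC box GGGCGG read on either strand:
Ramp3: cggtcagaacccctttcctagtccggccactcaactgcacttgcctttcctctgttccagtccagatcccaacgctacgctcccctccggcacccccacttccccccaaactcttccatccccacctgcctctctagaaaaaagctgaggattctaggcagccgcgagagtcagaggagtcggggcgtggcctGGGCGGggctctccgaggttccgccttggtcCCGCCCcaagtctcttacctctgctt
Of the bases shown, 61.6% were G or C, against a median of 51.2% over 33469 rat promoters of the same length. The GC box occurred at 57 and 26 bases before the start, and 30.5% of the promoters held it at least once. The E-box CANNTG, which needs no second search because it reads alike on both strands, occurred 3 times, at 219, 213 and 128 bases, and 65.5% of promoters held it. Neither strand held TATAAA (12.9% of promoters), TGACG (18.2%) or CCAAT (34.0%). No match overlapped another. These matches describe letters in a window and no binding was measured. A promoter entry was matched for 1 of the 2 genes, Ramp3.

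Library totals ran from 20200972 to 28175200 counts, and 15602 to 15960 genes had at least 1 count. At these depths 3 counts correspond to between 0.106 and 0.149 CPM, the usual unit of counts scaled to library size, the total of each library being adjusted by its TMM factor (0.967 to 1.03). Between 69.4 and 72.0% of the counts from 1 to 20 were even numbers, so that low counts moved mostly in steps of 2 and counting intervals taken from them may be too narrow. The replicate biological coefficient of variation was 4.35% in Control and reached 9.05% in HS3. Of the 10 libraries, HS14 replicate 2 stood apart for Ramp3, as given below.

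Ramp3 was highest after 3 days of suspension and low at every other time of suspension. The Control libraries held 486 and 580 counts, or 19.2 and 22.0 CPM. In HS1 the counts were 41 and 49 (1.68 and 2.13 CPM). In HS3 they were 1294 and 2036 (65.8 and 80.9 CPM). The HS3 libraries were thus both above Control and the HS1 libraries both below it, with a wide gap on either side. In HS7 the counts had returned to 63 and 33 (2.55 and 1.30 CPM). The HS14 libraries held 44 and 8 counts. That is 1.52 CPM in replicate 1 and 0.337 CPM in replicate 2, with exact 95% Poisson intervals for the counts of 32.0 to 59.1 and 3.45 to 15.8 that cover counting error only. The intervals do not meet, and the HS14 libraries therefore differed by more than counting error.

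Bdkrb2 was also highest in HS3, but its lowest level was in HS1. Control libraries held 1017 and 1074 counts (40.2 and 40.7 CPM). HS1 libraries held 228 and 168 counts (9.32 and 7.32 CPM), and HS3 libraries 1445 and 1932 (73.4 and 76.8 CPM). Bdkrb2 therefore lay on the same side of Control as Ramp3 at both times. In HS7 it stood at 525 and 557 counts (21.3 and 22.0 CPM). In HS14 it stood at 374 and 304 counts (12.9 and 12.8 CPM). No library of any group overlapped with a library of another group for this gene.

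**Figure D1:**
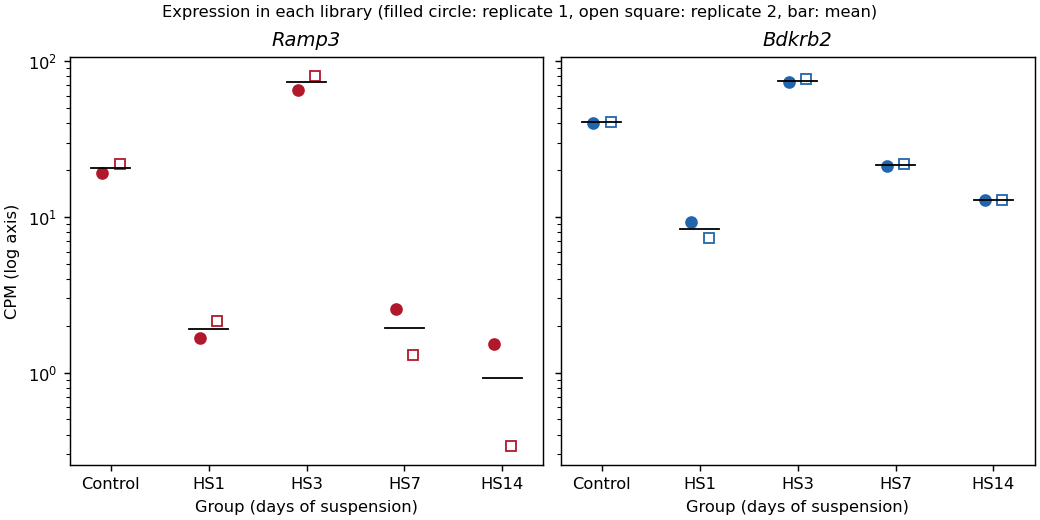
Level of Ramp3 (left) and Bdkrb2 (right) in each of the 10 libraries, in CPM on a log axis, by group. Filled circles are replicate 1, open squares replicate 2 and bars the mean of the 2 libraries. HS3 is the highest group in both panels, and the HS14 libraries of Ramp3 lie far apart (1.52 and 0.337 CPM).

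The order of the group means for Ramp3 was HS3 (73.4 ± 10.7 CPM, SD, n = 2), Control (20.6 ± 1.97), HS7 (1.93 ± 0.884), HS1 (1.91 ± 0.324) and HS14 (0.929 ± 0.838). HS3 exceeded Control 3.56-fold, and Control exceeded HS7 10.7-fold, with no overlap of libraries. HS7 and HS1 differed by 0.0233 CPM, far less than their combined SD of 0.942 CPM, and cannot be ordered. HS1 and HS14 did not overlap, yet their difference of 0.976 CPM was about as large as the combined SD of 0.898 CPM. HS7 and HS14 overlapped.

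For Bdkrb2 the order was HS3 (75.1 ± 2.39 CPM, SD, n = 2), Control (40.5 ± 0.372), HS7 (21.6 ± 0.503), HS14 (12.9 ± 0.0928) and HS1 (8.32 ± 1.42). Each step down was 1.86-, 1.87-, 1.68- and 1.55-fold, and each was larger than the combined SD of the groups beside it. The genes thus differed in which time was lowest and in how far HS7 and HS14 lay below Control. In bulk RNA, fewer cells of a type that expresses a gene and less of its RNA per cell cannot be told apart.

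On a log2 CPM scale with a prior count of 2, the group means of Ramp3 spanned 6.48, which was the widest span among the 13691 genes kept over all libraries (median 0.62). With a prior count of 0.5 it ranked behind 3 other genes, and without HS14 replicate 2 behind 2 others, with a span of 5.51. Without HS14 replicate 1 the span was 7.45, so its width rested on which HS14 library was used. Bdkrb2 spanned 3.17, and 2.07% of the genes (283, itself included) spanned at least as much. Its highest group mean was 9.03-fold above the lowest. Ramp3 lay at the 28.3rd percentile of mean level among the genes kept, and Bdkrb2 at the 51.5th.

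Replicate agreement also set the genes apart. The libraries of Bdkrb2 differed by 0.01 to 0.35 on the log2 scale within a group, and those of Ramp3 by 1.94 in HS14, 0.93 in HS7 and 0.19 to 0.33 in the other groups. In HS14, 98.9% of 853 genes within 0.5 log2 units of the level of Ramp3 had a smaller difference, their median being 0.42. In HS7 the corresponding share was 93.2% of 762 genes. The wide HS14 pair did not extend to Bdkrb2, whose HS14 libraries differed by 0.01.

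Because depth cancels within a library, the counts of Ramp3 per 100 counts of Bdkrb2 were also compared. They were 89.6 and 105.4 in HS3, against 47.8 and 54.0 in Control. The other libraries had 18.0 and 29.2 (HS1), 12.0 and 5.92 (HS7), and 11.8 and 2.63 (HS14). Relative to Bdkrb2, Ramp3 was therefore higher than in Control in HS3 and lower at the other times, without overlap with Control in any of them. Gene lengths do not enter a comparison of this ratio between groups.

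Each time of suspension was then set against Control, which all 4 of these comparisons share, and each time against the one before it. Fold changes came from edgeR with the 4 libraries concerned. The standard error (SE), on the log2 scale, was derived from the fold change and edgeR's F statistic. A gene was called when edgeR's quasi-likelihood p, adjusted by Benjamini-Hochberg, was below 0.01 and its log2 fold change lay beyond 1.5. For Ramp3 and Bdkrb2, which had been chosen on these same contrasts, nothing is read from the shares of all genes given for scale.

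After 1 day Ramp3 was 10.8-fold lower than in Control (log2 fold change -3.44, SE 0.17), and 20 of 13013 genes, itself included, were lower by as much. Bdkrb2 was 4.85-fold lower (-2.28, SE 0.12). The libraries of HS1 and Control did not overlap for either gene. Of all genes tested, 2.18% were called lower and 0.0922% higher. After 3 days Ramp3 was 3.55-fold higher (1.83, SE 0.11), a size that 89 of 13133 genes reached. Bdkrb2 was 1.85-fold higher (0.89, SE 0.08), which is short of the size limit. Here 0.777% of all genes were called higher and 0.350% lower. Both genes thus lay below Control in HS1 and above it in HS3.

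After 7 days Ramp3 was 10.7-fold lower than in Control (-3.42, SE 0.22), nearly the position it had in HS1. Bdkrb2 was 1.87-fold lower (-0.90, SE 0.09), a smaller distance than in HS1 by its point estimates. Of all genes, 1.63% were called lower and 1.95% higher in this comparison. After 14 days Ramp3 was 21.0-fold lower (-4.39, SE 0.29), with 11 of 13160 genes as low. The SE depended on the fit, from 0.19 without an expression filter to 0.93 with DESeq2. Without HS14 replicate 1 that log2 fold change was -5.92, and without replicate 2 it was -3.76. Bdkrb2 was 3.16-fold lower (-1.66, SE 0.10), and 2.01% of all genes were called lower against 0.524% higher.

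Successive times were compared next. Ramp3 was 38.7-fold higher in HS3 than in HS1 (5.28, SE 0.16), a difference that 11 of 13008 genes reached. Bdkrb2 was 9.05-fold higher (3.18, SE 0.13). In this step 5.69% of all genes were called higher and 1.48% lower. From HS3 to HS7 Ramp3 was 38.6-fold lower (-5.27, SE 0.23), so the step down had the size of the step up. Bdkrb2 was 3.52-fold lower (-1.81, SE 0.10) and kept part of its distance from HS1. The shares of all genes called were 3.28% lower and 1.63% higher. From HS7 to HS14 Ramp3 was 1.99-fold lower (-0.995, SE 0.59), with overlapping libraries, so that no difference could be shown. That value ran from -2.49 (without HS14 replicate 1) to -0.33 (without HS14 replicate 2) as single libraries were left out, and was -0.44 without HS7 replicate 1. Bdkrb2 was 1.67-fold lower (-0.74, SE 0.12) without overlap. In that step 1.82% of genes were called lower and 0.214% higher.

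**Figure D2:**
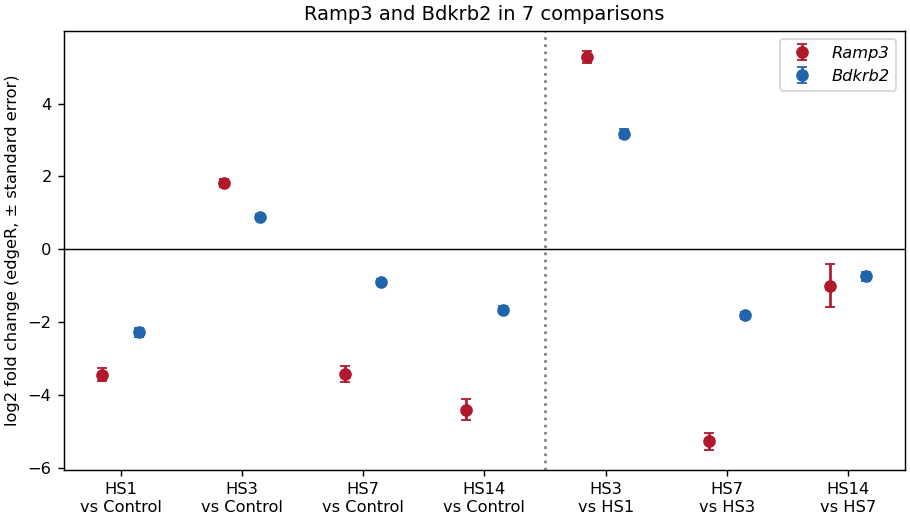
Log2 fold change (vertical axis) of Ramp3 (red) and Bdkrb2 (blue) with its standard error from edgeR in the 7 comparisons along the horizontal axis, the 4 against Control left of the dotted line. Both genes are positive in HS3 vs Control (1.83 and 0.89) and in HS3 vs HS1 (5.28 and 3.18), and negative in the other comparisons.

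Genes set beside Ramp3 and Bdkrb2 were taken from lists of 12 genes each. Symbols came from the study's table of genes that it had called at some time, so a list member without a symbol was not looked at. The counts below are no sample of the whole pathway. As the genes with a symbol were selected on these same libraries, their adjusted p-values are a description and no independent evidence of change. In the calcitonin receptor family Calcrl, the gene of the calcitonin receptor-like receptor, had no symbol and was not looked at. Besides Ramp3 only Adm, the gene of adrenomedullin (ENSRNOG00000027030), had a symbol. Its libraries held 36.5 and 40.5 CPM in HS3 and 11.5 and 12.1 in Control. They held 5.52 and 3.05 CPM after 1 day, 4.58 and 2.37 after 7 days and 2.63 and 3.20 after 14 days. The genes of the ligand and of the accessory protein were therefore highest in the same group and below Control in the other 3. Adm rose in HS3 (log2 fold change 1.70, SE 0.11, edgeR adjusted p = 3.19e-07), where Ramp3 stood at 1.83. It fell in HS7 (-1.76, SE 0.24, adjusted p = 8.91e-05) and HS14 (-2.03, SE 0.18, adjusted p = 4.21e-12). In HS1 Adm had an adjusted p of 1.23e-05 but a log2 fold change of -1.45 (SE 0.20), just short of the size limit. Without HS1 replicate 1 the value was -1.95 and past that limit. The HS7 call was lost without HS7 replicate 2, at -1.37. Between HS7 and HS14 no difference was shown for Adm (-0.25, SE 0.31, adjusted p = 0.586).

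Of the kallikrein-kinin list, 5 genes besides Bdkrb2 had a symbol. Membership of this list does not mean that a gene acts on kinins. In HS1, where Bdkrb2 stood at -2.28, 4 of the 5 fell. They were Mme (-2.31), Anpep (aminopeptidase N, -1.92), tissue kallikrein Klk1 (-1.69) and Enpep (aminopeptidase A, -1.61). Of all tested genes with a symbol, the pool these 5 came from, 34.7% fell there. Klk14, a kallikrein-related peptidase with 10 to 13 counts in HS1, had -1.68 with an edgeR adjusted p of 0.0116. Klk1 was no longer called without HS1 replicate 1 (-1.37). In HS3 none of the 5 was called against Control, and values ran from 0.29 to 1.05. Their median was 0.74, below the 0.89 of Bdkrb2, which only Klk1 exceeded. Of the 5, 3 had an adjusted p below 0.01 in edgeR's test, all of them higher, as had 7.00% of all genes. Genes with a symbol lay higher in HS3 as a whole (median log2 fold change 0.62), so the 5 are not compared with that share.

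In HS7 Klk1 went the other way from Bdkrb2. Its mean was 20.1 ± 6.48 CPM (SD, n = 2) against 3.83 ± 0.0578 in Control (2.39, SE 0.22, edgeR adjusted p = 1.39e-05). The 3 peptidases had log2 values of -0.99 (Anpep), -0.83 (Mme) and -0.74 (Enpep) there, beside -0.90 for Bdkrb2, and did not reach the size limit. In HS14 Klk1 (-1.65) and Klk14 (-2.34) fell. Anpep had -0.88, Mme -0.36 and Enpep -0.21 there, against -1.66 for Bdkrb2. All 5 genes rose from HS1 to HS3, by 2.22 to 2.75 on the log2 scale against 3.18 for Bdkrb2, and 53.8% of tested genes with a symbol rose in that step. From HS3 to HS7 Enpep fell (-1.51). Not called there were Anpep (-1.31), Mme (-1.21), Klk14 (-0.11) and Klk1 (1.32), beside -1.81 for Bdkrb2. From HS7 to HS14 Klk1 fell (-4.03), as did Klk14 (-3.11). The 3 peptidases were not called in that step and had positive values, against -0.74 for Bdkrb2. They were Enpep (0.55), Mme (0.48) and Anpep (0.12). The HS14 call of Klk14 was lost without Control replicate 2 (-2.03) or HS14 replicate 1 (-1.89), and that of Enpep between HS3 and HS7 without HS3 replicate 1 (-1.42) or HS7 replicate 2 (-1.30). Klk1 was called between HS3 and HS7 without HS7 replicate 2 (1.61). Rat kallikreins form a family of closely similar genes, so the split of reads among them is uncertain.

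**Figure D3:**
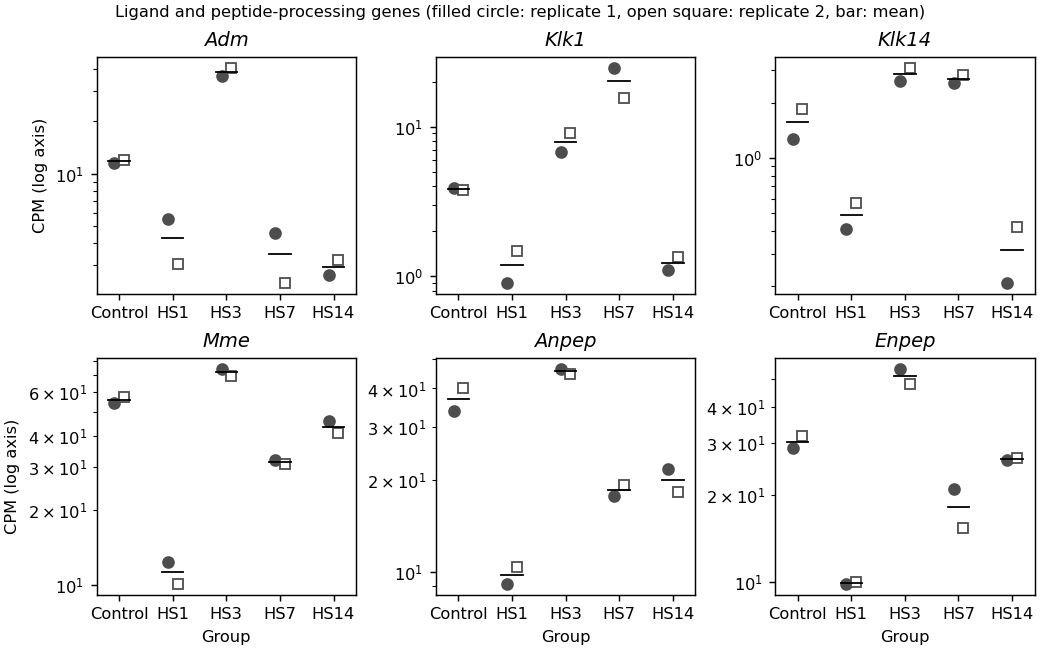
CPM on log axes of the ligand gene Adm and of Klk1, Klk14, Mme, Anpep and Enpep from the kallikrein-kinin list in each library, by group. Filled circles are replicate 1, open squares replicate 2 and bars means. Adm is highest in HS3 like Ramp3, whereas Klk1 is highest in HS7 (20.1 ± 6.48 CPM).

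All lists together, that is both families, wider groups of receptors, peptides and second messenger enzymes, and 2 terms named by the study, held 145 genes other than Ramp3 and Bdkrb2, of which 57 had a symbol. In HS1 32 of 53 tested fell and 0 rose (median log2 fold change -1.68), and 34.7% of all 729 tested genes with a symbol fell. As the 2 terms were picked on these libraries, a larger share here than among genes with a symbol is not read as a result. In HS3 10 of 54 rose and 1 fell (median 0.88), with 11.6% of 744 genes with a symbol rising. In HS7 12 of 56 fell and 7 rose (-0.74), and in HS14 21 of 56 fell and 2 rose (-1.06). Among genes with a symbol, 24.97% fell and 26.4% rose in HS7, and 28.6% fell and 4.95% rose in HS14. The share of the list that rose in HS7 was 12.5%, and for the same reason nothing is read from its being the smaller. The median over all genes tested lay within 0.01 of 0 in each comparison. From HS1 to HS3 42 of 55 rose and 1 fell (2.52), from HS3 to HS7 29 of 56 fell and 3 rose (-1.51), and from HS7 to HS14 12 of 56 fell and 1 rose (-0.54). The corresponding shares of genes with a symbol were 53.8% rising, 35.1% falling and 18.4% falling.

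The counts by role are to be read against the shares of genes with a symbol, which were 34.7% falling in HS1 and 11.6% rising in HS3, and those given above for HS7 and HS14. Counts by edgeR adjusted p alone in HS3 have only the share of all genes, 7.00% higher, beside them, so nothing is read from them. Of 9 other vasoactive peptide receptors, 6 fell in HS1, 3 rose in HS3, and 3 fell in each of HS7 and HS14. Among receptors for amines, lipids and nucleosides, 6 of 8 fell in HS1, 0 were called in HS3 (5 with an adjusted p below 0.01 in edgeR's test, all higher), 3 fell and 1 rose in HS7, and 6 fell in HS14. Of the downstream enzymes and regulators, 5 of 10 fell in HS1 and 0 were called in HS3 (2 with an adjusted p below 0.01, both higher). In HS7 3 of 11 of them fell and 2 rose, and in HS14 2 of 12 fell and 2 rose. Of the other peptides and converting enzymes, 2 of 5 fell in HS1, and in HS3 1 rose and 1 fell. In HS7 2 of 6 of them rose and 1 fell, and in HS14 1 of 6 fell. The study's own term on cytosolic calcium contains both Ramp3 and Bdkrb2. Of its other members, 21 of 30 fell in HS1 and 8 of 31 rose in HS3. In HS7 8 of 31 of them fell and 1 rose, and in HS14 13 of 30 fell. Its term on vasoconstriction, which contains Bdkrb2, had 8 of 11 falling in HS1 and 2 of 11 rising in HS3. In HS7 6 of 11 of its members fell, and in HS14 8 of 11. Both terms had been picked on these libraries and are not independent evidence of direction. Their members here are also only genes that the study had called on these libraries at some time, so the fractions follow in part from that choice.

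The largest called changes outside the 2 families were as follows. In HS1 they were Agtr1a, the angiotensin II type 1 receptor (-3.00, on 0 to 6 counts), vasopressin Avp (-2.88), the calmodulin-dependent phosphodiesterase Pde1a (-2.55) and the chemerin receptor Cmklr1 (-2.54). In HS3 they were Dhrs7c (3.23), connexin Gja5 (3.12), the natriuretic peptide clearance receptor Npr3 (2.02) and the capsaicin-gated channel Trpv1 (1.89). By point estimates Ramp3 was thus lower in HS1 than any of these, while its HS3 value of 1.83 lay below them all. Agtr1a was no longer called without each of 3 libraries in turn (-2.98 without Control replicate 2, -3.03 without Control replicate 1 and -2.07 without HS1 replicate 2), nor was Trpv1 without Control replicate 2 (1.77) or HS3 replicate 1 (1.58). In HS7 relaxin Rln1 (3.70) and Dhrs7c (2.48) rose, while the vasopressin receptor Avpr1a (-2.87) and Rgs17 (-2.33) fell. In HS14 Avpr1a (-3.90) and Npy4r (-2.84) fell, the adrenergic receptor Adra1d had 0 to 2 counts against 34 to 44 in Control, and Rgs5 had 27 to 37 counts against 0 in both Control libraries. The HS7 call of Dhrs7c was lost without Control replicate 1 (2.24), Control replicate 2 (2.76) or HS7 replicate 1 (1.602), and the HS14 call of Npy4r without Control replicate 2 (-2.27). From HS1 to HS3 Dhrs7c (4.81), Agtr1a (4.78), Npr3 (4.37) and Cmklr1 (4.22) rose most, each by less than the 5.28 of Ramp3. From HS3 to HS7 Rln1 rose (3.801) and Avpr1a (-3.38), the serotonin receptor Htr2a (-3.08) and Rgs17 (-3.07) fell. From HS7 to HS14 Dhrs7c (-4.74), Rln1 (-3.44), Tac3 (-2.78) and Npr3 (-2.63) fell. Tac3 was not called without HS14 replicate 1 (-3.15) or 2 (-2.52), nor Npr3 without HS14 replicate 1 (-1.83).

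Ramp3 and Bdkrb2 share an order, with both HS3 libraries above and all libraries of HS1, HS7 and HS14 below the Control libraries. This order was defined after their values were seen. It was found in 822 of the 13691 genes kept (6.004%) and in 222 of the 769 with a symbol (28.9%). Among the 57 pathway genes, 28 had it (49.1%), including Adm, Mme, Anpep, Enpep, Agtr1a, Htr2a and the prostacyclin receptor Ptgir. Since those 57 genes were picked with results in view, nothing particular to the list is read from this share.

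The pool for likeness in profile was 261 genes with a symbol and a mean of at least 3 log2 CPM. From it the genes most like Ramp3 and most like Bdkrb2 were taken by Pearson's r over the 10 libraries. For Ramp3 they were the interleukin 33 receptor Il1rl1 (0.980), the surface glycoprotein Thy1 (0.979), Kazald1 (0.975), A3galt2 (0.974) and protein kinase C delta, Prkcd (0.972). All 5 had a smaller span than Ramp3 over the groups, as the plot of profiles shows. For Bdkrb2 they were hyaluronan synthase Has2 (0.993), the homeobox gene Meox2 (0.993), S100b (0.991), Gpx3 (0.991) and fibrillin Fbn1 (0.990). These followed Bdkrb2 closely in size as well. Bdkrb2 itself ranked 51st for likeness to Ramp3, with an r of 0.885 and a Spearman's rho of 0.745. The 10 points share their 5 groups, so r mainly follows the group means. With Spearman's rho as the measure, 1 of the 5 genes was shared for Ramp3 and 0 for Bdkrb2.

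**Figure D4:**
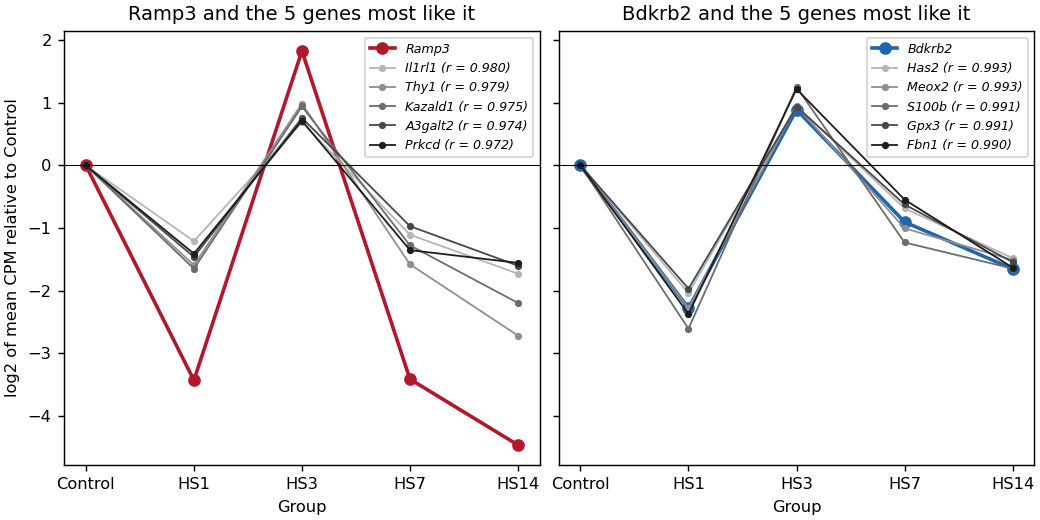
Mean CPM of each group relative to Control (log2) for Ramp3 (left, red) and Bdkrb2 (right, blue) with the 5 genes of highest Pearson's r over 10 libraries in grey to black. Ramp3 moves further than the genes beside it in every group, whereas the lines of Bdkrb2 and its 5 genes lie close together.

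Markers of the cell types that such cultures can hold moved between the groups too. The summed level of 9 fibroblast and fibro-adipogenic progenitor genes, with symbols for 9 of the 12 listed, was 8478 to 8993 CPM in Control and 2665 to 2672 after 1 day. It was 18270 to 22301 after 3 days, 9432 to 9653 after 7 and 3203 to 3441 after 14. Like Ramp3 and Bdkrb2 it was highest in HS3. Most of the sum was collagen Col1a1 (6773 of it in Control on average, 7788 CPM in HS7), and the members did not move as a group. In HS7 Thy1 fell (160 CPM against 479 in Control) and Postn rose (536 against 142), the only 2 of the 9 called there. Pdgfra (62.5 against 148) and Fbn1 (691 against 1008) had lower means, as Ramp3 and Bdkrb2 did. Dcn had a lower mean in HS3 (77.6 CPM) than in Control (163), and a higher one in HS14 (447). Thy1 and Fbn1 are also among the most similar genes above. The 6 of 12 pericyte and smooth muscle genes with a symbol summed to 446 to 486 CPM in HS3, 416 to 469 in HS7, 259 to 267 in Control, 237 to 285 in HS14 and 113 to 117 in HS1. This sum, too, hid members that differed, since in HS7 Notch3 (136 CPM against 31.5 in Control) and Heyl (199.6 against 49.4) rose and Myocd (0.382 against 9.31) fell. Pdgfrb was at 103 CPM in HS7 and 168 in Control, with its highest mean in HS3 (365) and its lowest in HS1 (57.5), like Bdkrb2.

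For 7 of 13 myogenic genes the sum was 949 to 1015 CPM in Control, 629 to 711 in HS1 and 2239 to 2295 in HS3, with each of the 7 detected in every library. It was 3330 to 5411 in HS7 and 626 to 695 in HS14, so the myogenic sum was highest in HS7, where Ramp3 was at 1.30 to 2.55 CPM. The 9 of 12 endothelial genes summed to between 8.502 and 23.5 CPM in any library, with the highest values, 21.1 to 23.5, in HS14, and up to 2 of them at 0 counts in a library. The 2 of 8 leukocyte genes summed to between 1.74 and 9.78 CPM, highest in HS3 (6.20 to 9.78). The part of these markers in the levels of Ramp3 and Bdkrb2 was not tested.

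**Figure D5:**
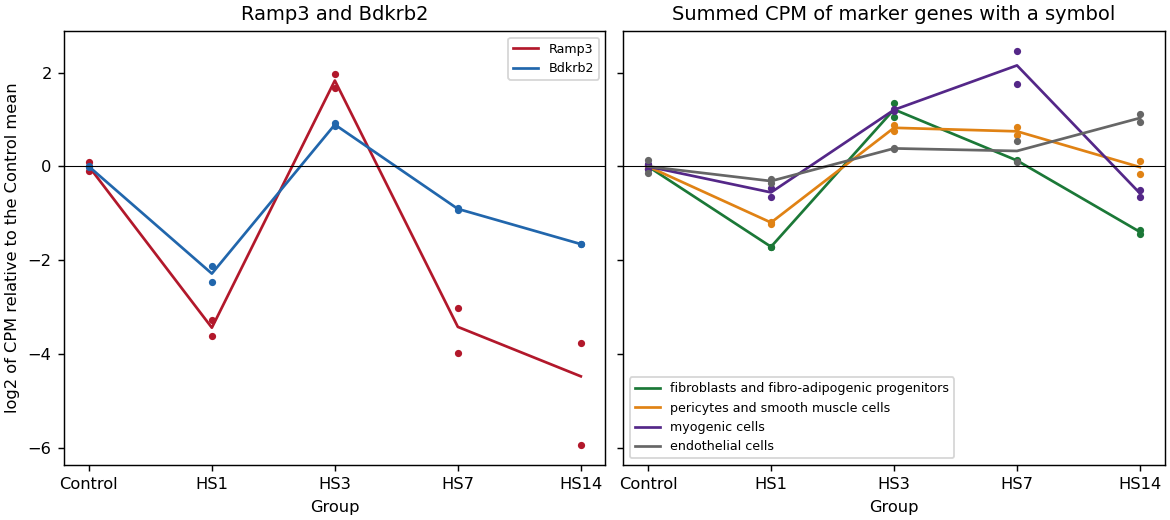
Level relative to the Control mean (log2) by group, for Ramp3 and Bdkrb2 (left) and for the summed CPM of marker genes of 4 cell types (right). Points are libraries and lines join group means. The fibroblast sum, most of it Col1a1, shares the low HS1 and the high HS3 with Ramp3 and Bdkrb2. In HS7 the sum is above Control, where Thy1, Pdgfra and Fbn1 are below it and the other markers of that list above it.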

How the data were processed

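The authors isolated cells from soleus by collagenase digestion and pre-plating, prepared stranded poly(A) libraries and deposited raw counts per Ensembl gene, with no normalization. The submitters' processing notes name FastQC 0.11.9, STAR 2.7, featureCounts 1.6.4, DESeq2 and the build Rnor_6.0, whereas the study's methods name mRatBN7.2, so the build of the deposited counts is unsettled. Symbols came from the study's supplementary list, where 770 of 817 identifiers have one. Ramp3, Bdkrb2 and all gene lists were chosen with earlier results of these data known.

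The counts were tested with edgeR 4.0.16 (R 4.3.3, limma 3.58.1), using TMM, filterByExpr and the robust quasi-likelihood test on the 4 libraries of each of 7 comparisons. Adjusted p-values (Benjamini-Hochberg) cover all genes tested. CPM use TMM-scaled totals. DESeq2 1.42.0, RLE size factors, no filter, a joint fit of 10 libraries, a replicate block, halved counts, a size limit of 1 and leaving out each library were the alternatives. The script was tested on simulated data. Replicate libraries differed by more than sampling noise (chi-square per gene 3.61 to 12.2). Libraries of the same number did not deviate together (correlations -0.02 to 0.04 over 10 pairs of groups). Genes named were Ramp3 and Bdkrb2, the 5 genes most similar to each and all members of the 2 families with a symbol. Up to 4 largest calls per comparison in the other lists were also named.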

Additional observations from a re-analysis of the deposited data

Results flagged for a closer look

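The direction of Ramp3 against Control was opposite at different times of suspension. Its log2 fold change was 1.83 in HS3, but -3.44 in HS1, -3.42 in HS7 and -4.39 in HS14, and all libraries of each group lay on the side of Control that its mean did. The same held for Bdkrb2, at 0.89 in HS3 against -2.28 in HS1, -0.90 in HS7 and -1.66 in HS14. Since the 2 genes were chosen with these levels known, and the 4 comparisons share the Control libraries, the difference between times was not tested.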

How the results depend on the processing

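The log2 fold changes of Ramp3 and Bdkrb2 kept their direction under all 70 alternatives run for each gene over the 7 comparisons, and moved by less than the replicate spread in 69 and 70 of them. The exception was Ramp3 in HS14 vs Control, which ranged from -5.92 to -3.76 as single libraries were left out, with the lowest value without HS14 replicate 1, a change that follows from its 44 and 8 counts. Ramp3 in HS14 vs HS7 ranged from -2.49 to -0.33 in the same way, which was within its wide replicate spread. Leaving out 1 of 2 libraries rarely moves a value past a spread taken from the same libraries, so those settings are a weak check. With a size limit of 1 in place of 1.5, more genes were called by construction, 531 in place of 296 in HS1 vs Control, 375 in place of 148 in HS3 vs Control, 930 in place of 472 in HS7 vs Control, 656 in place of 334 in HS14 vs Control, 1501 in place of 932 in HS3 vs HS1, 1203 in place of 646 in HS7 vs HS3, and 568 in place of 267 in HS14 vs HS7. Among the pathway genes, 23 in place of 11 were then called in HS3 vs Control. Leaving out single libraries gave 294 to 595 calls in HS7 vs Control, the fewest without Control replicate 2. In HS14 vs HS7 it gave 149 to 397 calls, the fewest without HS14 replicate 2, and 8 to 15 pathway genes in place of 13, the fewest without HS14 replicate 1. The cause was not tested. Against the 5 most similar genes by Pearson's r, the ranking by Spearman's rho shared 1 gene for Ramp3 and 0 for Bdkrb2, and that over group means shared 3 for each. With prior counts of 0.5 and 5, chosen after seeing the data, 548 and 172 genes spanned at least as much as Bdkrb2 in place of 283, and with 0.5 the number for Ramp3 was 4.

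Leaving out single libraries reversed the sign of 3 log2 fold changes, none of which had been called. Klk14 in HS7 vs HS3 ranged from -0.22 to 0.0091 (without HS3 replicate 2), Adm in HS14 vs HS7 from -0.65 to 0.30 (without HS7 replicate 1) and Anpep in HS14 vs HS7 from -0.015 (without HS14 replicate 1) to 0.24. DESeq2 no longer called Agtr1a in HS1, Trpv1 in HS3 or Npr3 between HS7 and HS14. The joint fit of all libraries no longer called Enpep from HS3 to HS7, at -1.49. Klk14 in HS1 was called with no filter, in the joint fit and with halved counts.

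The replicate numbers are shared between the groups, but the libraries did not deviate together by number. With the replicate block, Ramp3 in HS14 vs Control was -4.41 and Bdkrb2 -1.66. The block gave 253 calls in HS1 vs Control, 164 in HS3, 520 in HS7 and 314 in HS14, and lost the call of Agtr1a in HS1 but no other named gene. With 2 libraries a group, the SD has 1 degree of freedom. Depth limits Ramp3 in HS1, HS7 and HS14, where its counts lay between 8 and 63.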
